A study of Mus musculus with 7 samples.

Results

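The genes described here are 9 members of the Notch pathway, of 22225 protein-coding genes in the mouse annotation used: the receptors Notch1, Notch2 and Notch4, the ligands Jag1 and Dll1, the nuclear effectors Rbpj and Maml1 with the target gene Hes1, and the protease Adam10. For each gene, all ChIP-Seq peaks of PU.1 and of MITF were taken whose center lay in the gene or within 50 kb of either end on mm9. These windows held 149, 126 and 145 PU.1 peaks in MPs, at 36 h and in OCs, of 76243, 71941 and 77072 peaks in the whole lists. They held 12, 5 and 7 MITF peaks, of 5413, 3540 and 4443. MPs were bone marrow cells of C57BLACK6 mice aged 4 to 6 weeks, grown for 3 days with 50 ng/mL of CSF1. The 36 h cells and the OCs were such precursors kept in CSF1 with 100 ng/mL of RANKL for 36 h or 72 h, so that CSF1 is common to all groups and RANKL is absent from the MPs. The PU.1 and MITF immunoprecipitations used 5 µg of antibody. Each factor and time has 1 library, a non-specific IgG library exists for MPs alone, and no library has a replicate. No difference between times can therefore be set against a spread between cultures, and every error below covers counting only. The cell types could not be checked against marker genes, because no RNA was measured in these libraries.

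In Notch signaling a receptor on the cell surface binds a Jagged or Delta ligand on a neighboring cell. ADAM10 then cuts the receptor outside the membrane, gamma-secretase cuts it within the membrane, and the freed intracellular domain enters the nucleus, where it joins the DNA-binding protein RBPJ and a Mastermind coactivator and switches on target genes such as Hes1. Myeloid cells and osteoclasts carry this pathway, and RBPJ is known as a brake on osteoclast formation. PU.1 is an ETS family factor that defines the myeloid lineage. MITF is a basic helix-loop-helix factor of the osteoclast lineage that can occupy the same regulatory regions as PU.1.

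The score of a peak is its number of sequenced fragments (tags) after HOMER's scaling for library size. Tags could be recovered because dividing by the value of 1 tag left no score more than 0.0511 score units from a whole number of tags. The implied depth was about 5860000 to 6810000 tags for the PU.1 libraries and 8760000 to 10270000 for the MITF libraries, with HOMER's default scale assumed. The lowest listed peak had 6, 7 and 7 tags in the PU.1 lists and 9, 10 and 8 tags in the MITF lists, in the order MP, 36 h and OC used throughout. A site is missing from a list when it fell under that list's limit, which does not show that it was unbound. Peaks were at most 150 bp wide in the MP and OC lists, at most 190 bp wide for PU.1 at 36 h, and 150 to 1387 bp wide for MITF at 36 h. Wider peaks hold more tags, and this width moved with the 36 h libraries in every comparison that uses them; its part there was not tested.

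Among the 9 genes, the receptor and effector windows were dense in PU.1 peaks and the windows of the 2 ligands were not. The 3 receptors held 67, 61 and 74 PU.1 peaks, the 3 effectors 55, 49 and 52, Adam10 19, 10 and 14, and the 2 ligands 8, 6 and 5. Per 100 kb of window, the median of the 9 genes was 10.7, 10.7 and 10.4 peaks, against 4.72, 4.64 and 4.85 for all protein-coding genes. Notch4 and Maml1 were densest in OCs, both with 16.1 peaks per 100 kb, above 98.2% of genes. Notch2 had 12.7, 11.8 and 14.8 peaks per 100 kb. Jag1 had 4.44, 3.70 and 2.96, and Dll1 had 1.83, 0.913 and 0.913. In the plot of peak density, 7 of the 9 genes lie above the median of all genes in all 3 lists. The single IgG peak in these windows lay 3′ of Adam10 with 16 tags, 5063 bp from the nearest PU.1 or MITF peak. No PU.1 or MITF peak in these windows thus overlapped an IgG peak. The IgG library had an implied depth of about 3120000 tags and a lowest listed score of 22.4. It could not list background at the height of lower peaks, so the lack of overlap does not test them.

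**Figure D1:**
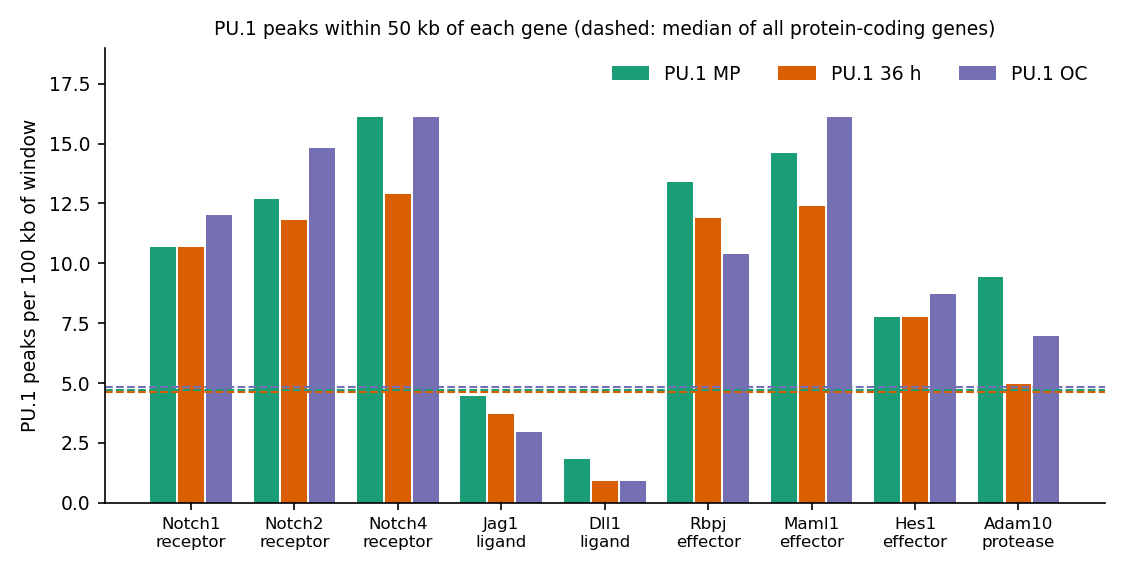
Bars show PU.1 peaks per 100 kb of window (gene and 50 kb on either side) for each gene in the MP, 36 h and OC lists, and dashed lines show the median of all protein-coding genes (4.72, 4.64 and 4.85). Receptors and effectors lie above the lines, Jag1 and Dll1 lie below them, and Adam10 drops from 9.44 in MPs to 4.97 at 36 h.

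A window is not the gene alone. Overlapping PU.1 peaks of the 3 lists merged into 186 sites, of which 67 lay in introns, 7 in exons, 56 upstream and 56 downstream of the gene. A member was the gene of the nearest TSS for 104 of them. In the Notch2 window this was so for 30 of 40 sites, and in the Rbpj window for 24 of 29. It was so for 3 of 25 sites in the Notch4 window, where TSSs of Btnl7, Prrt1, Ppt2 and other neighbors were nearer, and for 5 of 25 in the Maml1 window, next to Mgat4b, Canx and Ltc4s. The density at Notch4 and Maml1 thus counts mostly sites nearer to a TSS of another gene.

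Notch1, a receptor best known for directing lymphoid fate, lies at chr2:26313423-26372183 on the minus strand and had 17, 17 and 19 PU.1 peaks. Its window held the highest PU.1 score of all 9 genes at 36 h and in OCs, in an intron 23.6 kb from the 5′ end of the gene at chr2:26348500-26348690, with 106, 132 and 108 tags (scores of 180.8, 195.1 and 158.6). In MPs the Maml1 site with a score of 182.5 was level with it. MITF was listed at this Notch1 site in MPs alone, with 15 tags. A second intronic site 44.1 kb from the 5′ end, at chr2:26327939-26328147, had 64, 69 and 69 PU.1 tags. It was the strongest MITF site of the members at 36 h and in OCs, though not in MPs, with 13, 42 and 22 MITF tags (scores of 13.5, 40.9 and 25.1, with 95% intervals of 7.2 to 23.1, 29.5 to 55.3 and 15.7 to 38.0). The MITF peak at 36 h was 192 bp wide there, against 150 bp in the other lists. The site lies 2.0 kb upstream of an annotated internal TSS of Notch1. The OC peaks of both sites are shown because they carry the highest PU.1 and MITF scores of the members in OCs, on the plus strand of mm9, with the ETS core GGAAGT or its reverse complement in capitals.
Notch1 highest PU.1 peak, chr2:26348534-26348684: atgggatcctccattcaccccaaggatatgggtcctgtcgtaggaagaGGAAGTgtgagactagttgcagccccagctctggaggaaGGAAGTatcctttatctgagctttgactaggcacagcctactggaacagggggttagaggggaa
Notch1 peak with MITF at all times, chr2:26327997-26328147: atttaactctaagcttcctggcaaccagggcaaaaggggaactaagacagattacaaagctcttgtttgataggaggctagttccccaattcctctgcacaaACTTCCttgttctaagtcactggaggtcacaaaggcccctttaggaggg

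The first of these sequences holds 2 ETS cores and 2 copies of the longer PU.1 core GAGGAAG, and the second holds 1 ETS core. Neither holds an E-box (CACGTG or CACATG), the hexamer that MITF and related factors are known to bind. Near the Notch1 promoter, PU.1 was low: the site 1.9 kb upstream of the 5′ end had 9, 25 and 12 tags, and the sites 8.9 and 9.3 kb inside the gene, near other annotated TSSs, had at most 17 tags. Sites of 8 tags at 1.6 kb and of 7 tags at 15.6 kb were listed at 36 h alone. Upstream, sites at 18.1 kb with 31, 30 and 32 tags, at 21.2 kb with 31, 21 and 28 and at 33.3 kb with 30, 40 and 43 were higher than the promoter site, except that the site at 21.2 kb was lower at 36 h. A site 33.3 kb inside the gene had 29 and 27 tags at 36 h and in OCs and none listed in MPs, where a peak of 23 tags lay 344 bp away.

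Notch2, the receptor whose truncating mutations cause a human syndrome of bone loss, lies at chr3:97817461-97954290 on the plus strand and had the most PU.1 peaks of the members, 30, 28 and 35. Its highest site in MPs and OCs lay in an intron 53.1 kb from the 5′ end, at chr3:97870455-97870645, with 78, 60 and 88 tags. Next came an intronic site at 19.9 kb with 74, 57 and 79 tags, an upstream site at 42.3 kb with 58, 58 and 77 tags, and an upstream site at 18.5 kb with 70, 62 and 72 tags, the highest at 36 h. The last of these, chr3:97798863-97799053, is the site at which the study placed its Notch2 ChIP-qPCR primers. Both primers matched mm9 once, and the product of 93 bp, chr3:97798922-97799014, lay wholly within the site. MITF was listed there in OCs alone with 9 tags, and at 19.8 kb upstream in MPs alone with 10 tags, where PU.1 had 31, 19 and 28 tags. The OC peak of the highest site is given with the ETS core in capitals, and the ChIP-qPCR product with the primer sites in capitals.
Notch2 highest PU.1 peak, chr3:97870474-97870624: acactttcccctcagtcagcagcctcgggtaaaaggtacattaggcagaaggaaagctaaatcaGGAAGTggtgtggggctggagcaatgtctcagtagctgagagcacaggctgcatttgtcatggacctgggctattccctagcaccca
Notch2 ChIP-qPCR product, chr3:97798922-97799014: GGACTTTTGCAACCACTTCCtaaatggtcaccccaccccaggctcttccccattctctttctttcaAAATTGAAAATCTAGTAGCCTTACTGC

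The forward primer site of Notch2 ends in ACTTCC, the reverse complement of the ETS core. The TSS of Notch2 itself carried little PU.1: a peak of 10 tags in OCs 0.5 kb inside the gene and a peak of 7 tags at 36 h 2.0 kb inside it were all that lay within 3 kb.

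In OCs the PU.1 peaks around Notch2 formed 1 of the largest clusters of the genome. This cluster was known from the same OC data before the genes were examined. Its rank in OCs, and the contrast with the other lists, are therefore descriptions and not tests. When peaks up to 12.5 kb apart were joined, chr3:97734409-97891742 became a region of 157.3 kb with 39 peaks and a summed score of 1865.0, which ranked 3 of 30859 regions. Of these, 20 peaks with a summed score of 1039.7 lay upstream of the gene, from chr3:97734409 to 97809432. The region began outside the 50 kb window, and Gm5544 had the nearest TSS for 2 sites of that window. In MPs and at 36 h the stretch of the OC region was split. The highest region touching the gene had a summed score of 465.8 and rank 1174 in MPs, and 492.0 and rank 707 at 36 h. The highest joined region anywhere in the stretch, the part upstream of the gene included, had 987.6 in MPs and 582.3 at 36 h. Over the OC interval, read in each list as it stands, there were 35, 30 and 39 peaks with 1024, 996 and 1270 tags and summed scores of 1746.7, 1472.0 and 1865.0. Placed among the joined regions of its own list, the interval would rank 10 in MPs and 7 at 36 h, although its ends were chosen in OCs. Of the 39 OC peaks, 32 overlapped an MP peak and 29 a 36 h peak, and 27 overlapped both. MPs had gaps of 18983 and 12951 bp between neighboring peaks, and the 36 h list had gaps of 14418, 12889 and 14548 bp, all above the joining distance, whereas the largest gap in OCs was 12087 bp. An intronic OC peak of 15 tags at 21.5 kb lay in the 12951 bp gap, and without it the OC region would break into parts of rank 33 and 891. Without the 10-tag peak 0.5 kb inside the gene, the parts would rank 94 and 245. Joined at 5 kb, the highest Notch2 region in OCs ranked 610 of 49524. At the other members, the best ranks of joined regions touching the gene were 415 for Maml1, 732 for Notch1 and 1145 for Notch4, all at 36 h. In MPs they were 1302 for Rbpj and 3753 for Adam10. The Maml1 region of rank 415, chr11:50025518-50073411, lay mostly 3′ of the gene and reached it by an intronic peak of 18 tags. In MPs and OCs the Maml1 regions ranked 1344 and 1325. The Notch4 region, chr17:34692619-34742087, also ran past the 3′ end of its gene. No region of Jag1 or Hes1 came above rank 11437, and Dll1 had none.

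**Figure D2:**
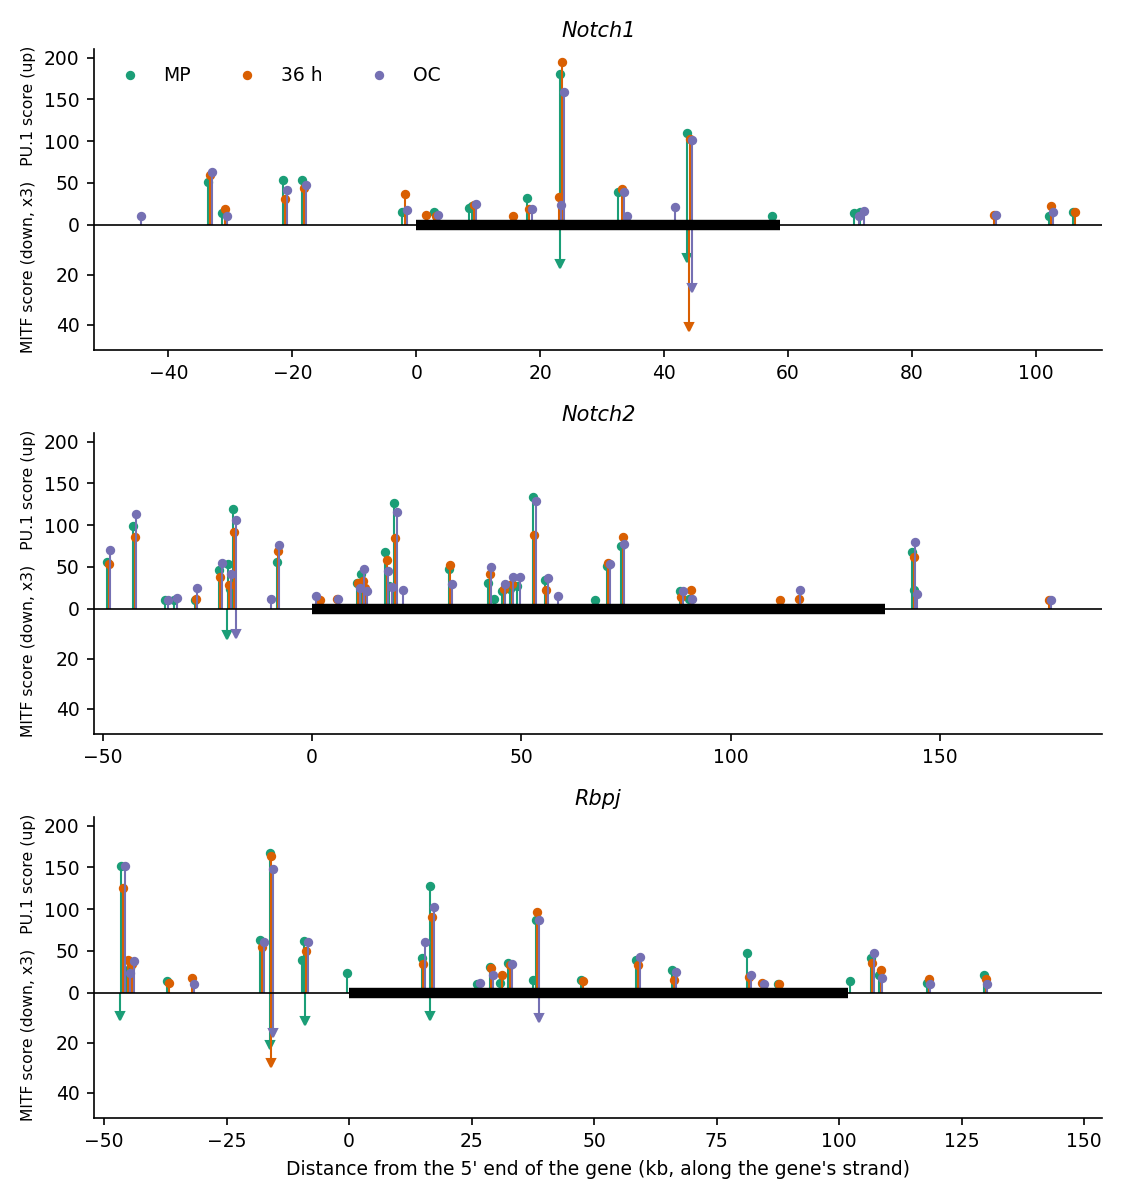
PU.1 scores (upward) and MITF scores (downward, drawn 3 times larger) of every listed site are plotted against distance in kb from the 5′ end of Notch1, Notch2 and Rbpj, with the gene body as a black bar. Each site is drawn at 1 position with a small fixed offset by time, so shifts in position do not show. PU.1 sites of high score mostly have a point at all 3 times. The MITF sites stand under PU.1 sites of varied height or, at the far upstream end of Rbpj, beside one. The PU.1 scores at the MITF site 19.8 kb upstream of Notch2 are 52.9, 28.1 and 41.1.

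Notch4, a receptor known mainly from endothelial cells, lies at chr17:34701213-34725448 on the plus strand and had 20, 16 and 20 PU.1 peaks. The highest of the window, at chr17:34740779-34740969 with 63, 66 and 60 tags, lay 3′ of the gene next to the TSS of Rnf5. Of the sites nearest to Notch4 itself, that at 7.1 kb upstream had 50, 41 and 41 tags, and that at 2.8 kb upstream, chr17:34698304-34698494, had 39, 42 and 44. MITF was listed at the latter in MPs with 16 tags and at 36 h with 11 tags and not in OCs. An intronic site near an internal TSS, 14.0 kb from the 5′ end, had 38, 31 and 33 tags. Among lower sites of the window, a site at the TSS of Gpsm3 had 9, 16 and 28 tags, a site near Pbx2 had 6, 17 and 12, and a site 23.7 kb upstream had 19, 10 and 25, of which no pair passed the test described below.

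The ligand Jag1 lies at chr2:136907192-136942380 on the minus strand and had 6, 5 and 4 PU.1 peaks, all of them low. Its highest sites were 3′ of the gene, at 54.1 kb from the 5′ end with 22, 19 and 30 tags and at 36.0 kb with 21, 30 and 24. MITF was listed at the second in OCs alone, with 8 tags, the lowest that list holds. Around the promoter, the site 2.4 kb upstream had 15, 13 and 16 tags, the intronic site 2.2 kb inside the gene 18, 15 and 21, and an exonic site at 1.0 kb 6 and 11 tags in MPs and at 36 h. The remaining peak, 19.3 kb upstream, had 10 tags in MPs. The ligand Dll1 lies at chr17:15504318-15513836 on the minus strand, and PU.1 was listed nowhere in the gene or within 3 kb of its TSSs. A peak of 6 tags in MPs lay 3′ of it. The other PU.1 site, with 22, 48 and 42 tags, lay 19.4 kb upstream at the TSS of Fam120b, and MITF had 10 tags there in MPs.

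Rbpj, which encodes the DNA-binding protein of the pathway, lies at chr5:53947018-54048684 on the plus strand and had 27, 24 and 21 PU.1 peaks. It had the most MITF peaks of the members, 4, 1 and 2. The leading site lay 15.8 kb upstream at chr5:53931093-53931294, with 98, 111 and 101 PU.1 tags (scores of 167.2, 164.1 and 148.3) and MITF at all 3 times with 20, 29 and 14 tags (scores of 20.8, 28.2 and 16). Both factors were thus listed there in all 6 libraries, which was so at 1 other site of the members, in the Notch1 intron. The study placed its Rbpj ChIP-qPCR primers here: the product of 78 bp, chr5:53931123-53931200, lay within the site, and each primer matched mm9 once. A site at 46.1 kb upstream had 89, 85 and 103 tags, level with it in OCs within counting error. Further sites with both factors were at 8.7 kb upstream (36, 34 and 41 PU.1 tags, MITF 11 in MPs), 16.9 kb inside the gene (75, 61 and 70, MITF 9 in MPs) and 38.4 kb inside it (51, 65 and 59, MITF 9 in OCs). PU.1 without MITF was listed at 17.7 kb upstream (37, 37 and 41) and 15.2 kb inside the gene (24, 23 and 41). The remaining MITF peak, 46.3 kb upstream with 9 tags in MPs, did not overlap PU.1, and the PU.1 site at 46.1 kb was next to it. The OC peak of the leading site is given with the ETS core in capitals, and the ChIP-qPCR product with the primer sites in capitals.
Rbpj leading site, chr5:53931144-53931294: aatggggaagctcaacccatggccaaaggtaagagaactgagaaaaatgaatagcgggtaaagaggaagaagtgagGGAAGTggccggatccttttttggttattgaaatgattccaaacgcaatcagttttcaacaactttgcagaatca
Rbpj ChIP-qPCR product, chr5:53931123-53931200: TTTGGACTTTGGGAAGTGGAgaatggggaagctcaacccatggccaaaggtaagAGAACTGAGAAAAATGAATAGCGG

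The forward primer site of Rbpj holds TGGGAA, the core that RBPJ itself is known to bind, overlapping by its last letters with GGAAGT. At the Rbpj promoter, a peak of 14 tags lay 0.1 kb upstream of the 5′ end in MPs alone. Near an internal TSS, the site 32.9 kb inside the gene had 21, 22 and 23 tags.

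Maml1, the Mastermind coactivator, lies at chr11:50069136-50105838 on the minus strand and had 20, 17 and 22 PU.1 peaks. Its 2 highest sites were intronic. At 5.8 kb from the 5′ end, chr11:50099953-50100143 had 107, 96 and 97 tags, and at 16.2 kb, chr11:50089510-50089700 had 87, 111 and 95. These are the levels of the Rbpj site, and the order of the pair differed between times. MITF was listed at the second with 9 tags in MPs and 11 at 36 h. In OCs alone, MITF peaks of 9 and 8 tags lay at 67.8 and 63.0 kb, 3′ of Maml1 and next to Mgat4b, at PU.1 sites of 48, 54 and 63 and of 56, 78 and 70 tags. Between these neighbors, the TSS of Ltc4s carried 40, 53 and 52 PU.1 tags. The Maml1 promoter site, 0.2 kb upstream, had 14, 20 and 21 tags. The OC peak at 16.2 kb is shown because it holds an ETS core and an E-box together, both in capitals.
Maml1 peak with MITF, chr11:50089536-50089686: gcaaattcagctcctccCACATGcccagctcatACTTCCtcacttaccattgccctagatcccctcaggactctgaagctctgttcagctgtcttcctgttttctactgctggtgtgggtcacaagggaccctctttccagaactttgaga

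Hes1, the repressor that is the classical target of the pathway, is the shortest gene of the 9, at chr16:30064470-30067882 on the plus strand, and had 8, 8 and 9 PU.1 peaks. The highest lay 40.8 kb upstream at chr16:30023601-30023803, with 52, 59 and 57 tags, and MITF was listed there with 10 tags in MPs and 10 at 36 h. The TSS nearest to this site was that of 4632428C04Rik, at 14949 bp, and a Hes1 TSS was nearest for 6 of the 11 sites in the window. At 39.5 kb upstream PU.1 had 31, 26 and 29 tags. The gene itself carried 10, 10 and 7 tags at 2.2 kb, and the site 4.9 kb upstream 7, 13 and 13. The OC peak of the highest site is given because it is the only site of this window with both factors, with the ETS core in capitals.
Hes1 highest PU.1 peak, chr16:30023601-30023751: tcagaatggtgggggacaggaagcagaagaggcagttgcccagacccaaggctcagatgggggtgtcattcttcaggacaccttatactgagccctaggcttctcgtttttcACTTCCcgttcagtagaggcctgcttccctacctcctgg

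Adam10, the protease of the first cut, lies at chr9:70526804-70628036 on the plus strand and had 19 PU.1 peaks in MPs against 10 at 36 h and 14 in OCs. Of its 22 sites, 8 were in all 3 lists and 7 in MPs alone. Those 7 were low, with 6 to 16 tags. The limit of the PU.1 MP list, 6 tags, is a score of 10.2, against 10.3 for the limit of 7 tags at 36 h and in OCs. The highest sites were intronic, at 82.2 kb from the 5′ end (chr9:70608887-70609087) with 62, 51 and 63 tags and at 52.3 kb (chr9:70578999-70579189) with 69, 48 and 46. At its TSS, chr9:70526728-70526923, PU.1 had 6, 19 and 13 tags. MITF was listed once, with 9 tags in MPs, 112.7 kb from the 5′ end and 3′ of the gene, where PU.1 had 40, 29 and 30 tags.

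Most sites lay away from the promoters of the members themselves. Sites near TSSs of neighboring genes alone, such as Ltc4s, Rnf5 and Fam120b, are left out of the count that follows. There were 19 sites within 3 kb of an annotated TSS of a member, 12 of them in all 3 lists, and leaving aside the internal Notch1 site with 69 tags and the sites of Notch4 with up to 44, the highest had 25. By this measure 8 of 9 members had PU.1 at a TSS in any list and 7 in all 3 lists, against 55.4% and 41.7% of all protein-coding genes, and Dll1 was the member without. MITF lay within 3 kb of a TSS of Notch1 and Notch4, 22.2% of the members against 6.31% of genes. Genes with many annotated TSSs, such as Notch1 with 13 and Notch4 with 11, have more chances to meet this criterion.

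Of the 186 PU.1 sites, 97 (52.15%, 95% Wilson interval 45.00 to 59.21) were in all 3 lists, against 50.52% of 102280 sites genome-wide. The share was 46 of 91 for receptors, 5 of 8 for ligands, 38 of 65 for effectors and 8 of 22 for Adam10. The share rose with height: 58 of the 59 sites with a highest score of at least 40 were in all 3 lists, against 9 of 73 with a highest score under 20, and the shares over the genome were 94.51% and 13.79%. From 20 to 40 it was 30 of 54 (55.56%, 95% Wilson interval 42.38 to 68.00), against 68.38% over the genome. Of the 89 sites missing from a list, 72 had fewer than 15 tags at their highest, and 25 were listed in MPs alone, 6 at 36 h alone and 18 in OCs alone. Among the 89, 11 had a peak within 500 bp in a list they were missing from. With sites within 500 bp joined, an alternative chosen after seeing the data, 99 of 165 member sites were in all 3 lists, and 54.49% genome-wide.

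To ask whether PU.1 changed at sites listed at 2 times, an exact binomial test set the tags of overlapping peaks against the genome's median tag ratio. The p-values were adjusted by Benjamini-Hochberg over every pair in the genome, and a pair was called at an adjusted p under 0.05 and at least a 2-fold change. No member pair was called: 0 of 107 from MP to 36 h, 0 of 114 from MP to OC and 0 of 110 from 36 h to OC. Genome-wide, 1.05%, 0.156% and 0.0707% of pairs were called. At an unadjusted p under 0.05 there were 6, 5 and 4 member pairs, where the genome-wide shares were 10.9%, 7.84% and 6.45%. The median log2 change of the member pairs, relative to all pairs, was 0.03, 0.02 and -0.03. With a median of 45, 44 and 49 tags in both peaks together, a change of a low site could not be resolved, and a site that fell under a list's limit had no pair.

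The largest log2 changes from MP to 36 h, all relative to the median of all pairs, were at low sites. The Adam10 TSS site changed by 1.58 (6 to 19 tags, 95% interval 0.20 to 3.19, exact binomial test with Benjamini-Hochberg adjusted p = 0.268), the site near Pbx2 in the Notch4 window by 1.42 (6 to 17) and the site upstream of Notch1 by 1.39 (9 to 25). In the other direction, an intronic Rbpj site 81.6 kb from the 5′ end changed by -1.19 (28 to 13 tags, adjusted p = 0.239 by the same exact test), the Notch4 window site 23.7 kb upstream by -1.01 (19 to 10), and the Notch2 site 19.8 kb upstream by -0.79 (31 to 19). The lowest adjusted p of this comparison, 0.133 in the exact binomial test, belonged to the Fam120b site in the Dll1 window, with 22 to 48 tags and a log2 change of 1.04.

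From MP to OC the largest changes were 1.44 at the Gpsm3 site in the Notch4 window (9 to 28 tags), 1.31 at a Notch2 site 27.7 kb upstream (6 to 17) and 0.92 at the Adam10 TSS (6 to 13), and -1.19 at the same Rbpj site (28 to 14), -1.01 at the Maml1 window site 48.4 kb from the 5′ end (30 to 17) and -1.0 at the Adam10 window site 22.8 kb upstream (14 to 8). The lowest adjusted p was 0.280 in the exact binomial test, at the Adam10 intronic site of 69 and 46 tags with a log2 change of -0.78 (95% interval -1.35 to -0.22). From 36 h to OC the Notch4 window site 23.7 kb upstream changed by 1.21 (10 to 25), the Notch2 site 27.7 kb upstream by 0.97 (8 to 17) and a Notch2 site 116.2 kb inside the gene by 0.79 (8 to 15), and the site upstream of Notch1 by -1.17 (25 to 12), a Notch2 site at 90.5 kb by -1.02 (15 to 8) and a Notch1 window site 30.9 kb upstream by -1.01 (13 to 7). The Rbpj site of 28, 13 and 14 tags was lower at both later times, and the Notch1 upstream site was high at 36 h alone, but neither passed the test.

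**Figure D3:**
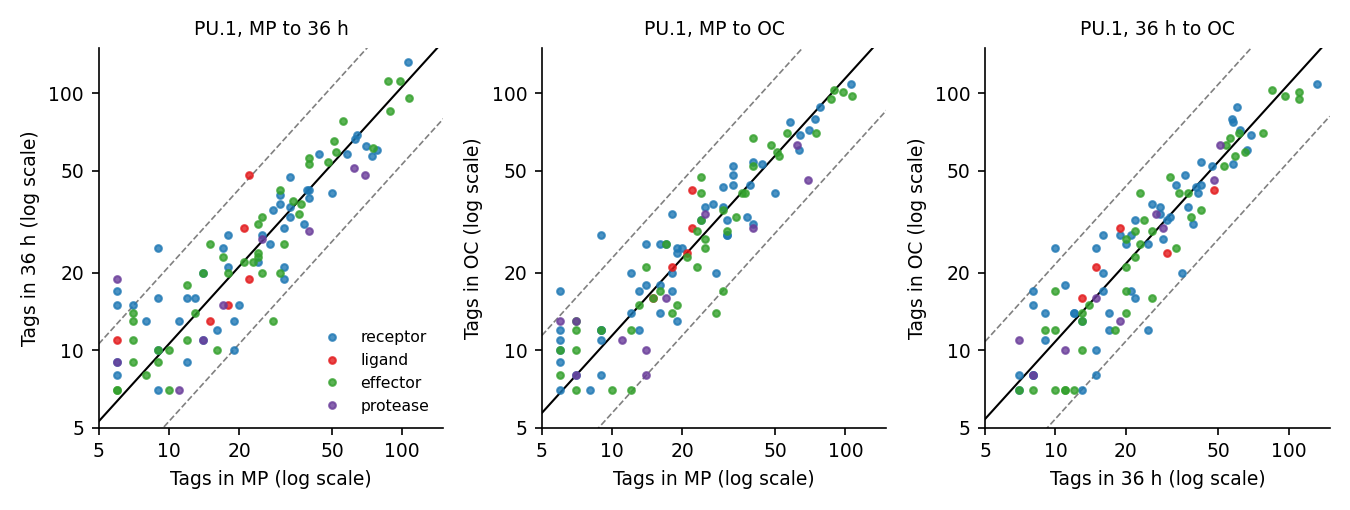
Tags of each PU.1 peak pair in the windows of the 9 genes are plotted for MP against 36 h, MP against OC and 36 h against OC, on log scales, with color for the role of the gene. The solid line is the median ratio of all pairs of the genome and the dashed lines are 2-fold from it; pairs outside them lie mostly under 30 tags, and 0 of them were called.

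Tags were also summed over the sites present in all 3 lists. The 97 sites had 3012, 3193 and 3410 tags, a log2 change relative to all sites of 0.02 (95% interval -0.06 to 0.09) from MP to 36 h -0.01 (-0.08 to 0.06) from MP to OC and -0.04 (-0.11 to 0.03) from 36 h to OC. For receptors these values were 0.01 (-0.10 to 0.12), 0.04 (-0.07 to 0.14) and 0.02 (-0.09 to 0.12). For effectors they were 0.06 (-0.05 to 0.17), -0.02 (-0.13 to 0.09) and -0.09 (-0.20 to 0.01), and for ligands 0.28 (-0.11 to 0.68), 0.25 (-0.13 to 0.65) and -0.04 (-0.40 to 0.32). From 36 h to OC, Notch1 was at -0.27 (-0.48 to -0.05) over 11 sites, and 7.13% of genes were lower. The single shared site of the Dll1 window, at Fam120b, was at 1.06 (0.30 to 1.86) from MP to 36 h. From MPs to both later times Adam10 was the lowest member, with 244, 207 and 223 tags over 8 sites, a change of -0.30 (-0.58 to -0.03) from MP to 36 h and of -0.32 (-0.58 to -0.05) from MP to OC. In the latter 4.76% of the 10391 genes with at least 5 such sites were lower still. Notch2 changed by 0.09 (-0.06 to 0.23) from MP to OC over 22 sites. The 4 shared sites of Jag1 gave intervals of -0.52 to 0.43 and -0.38 to 0.53, too wide to compare the ligands with the receptors. These intervals are not adjusted for the number of genes.

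**Figure D4:**
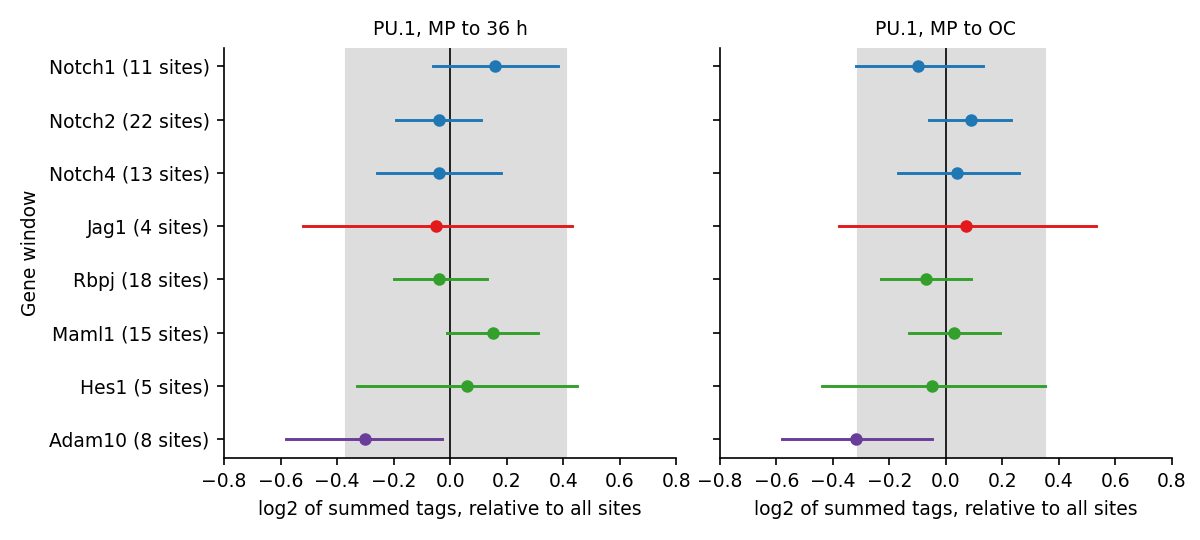
Points show the log2 ratio of PU.1 tags summed over the sites of each window found in all 3 lists, relative to the median of all sites, from MP to 36 h (left) and from MP to OC (right), with 95% exact binomial intervals. The grey band spans the 5th to 95th percentile of the 10391 genes with at least 5 such sites; Adam10 is the lowest point in both panels and Dll1, with 1 site, is not drawn.

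MITF peaks of the members were few and nearly all lay on PU.1 sites. The 24 peaks merged into 17 sites, and 16 of them overlapped a PU.1 peak (94.12%, 95% Wilson interval 73.02 to 98.95), against 93.88% of 7643 MITF sites genome-wide. All 9 genes had MITF in their window in at least 1 list, but 2 of the 17 sites were in all 3 MITF lists, the Notch1 intron and the site upstream of Rbpj. The shares of genes with a MITF peak in the window were 8 of 9 in MPs, 5 of 9 at 36 h and 5 of 9 in OCs, against 32.1%, 24.0% and 28.9% of all genes. A longer window has more chances to hold a peak, and windows were not matched for length or for PU.1 sites. MITF lay at tall PU.1 sites: 10 of the 21 member sites with a highest PU.1 score of at least 80 overlapped MITF, against 51.00% genome-wide. With a highest score from 40 to 80 it was 6 of 38, against 5.026%, and 16 of all 186 sites did, against 7.018%. Most MITF peaks were near the limit of their list, and 14 of the 17 sites had no score above 15.6.

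MITF tags could be compared at 5 member pairs from MP to 36 h and at 2 pairs in each other comparison, and 0 were called, where 15.2%, 0% and 9.66% of pairs genome-wide were called by the same exact binomial test with Benjamini-Hochberg adjustment. The counts at an unadjusted p under 0.05 were 1, 0 and 0, where the genome-wide shares were 29.6%, 3.23% and 25.2%. From MP to 36 h the median MITF pair held 1.7368 times more tags at 36 h, in the list of wider peaks, and changes are relative to that ratio. The Notch4 site changed by -1.34 (16 to 11 tags, adjusted p = 0.0780 in the exact test) and the Notch1 intron by 0.90 (13 to 42, adjusted p = 0.167 in the exact test). If the ratio of the implied library sizes was used in its place, the Notch1 site was called, with a log2 change of 1.60 and an adjusted p of 0.00104 in the exact test, as were 843 of the 2509 pairs of the genome. From MP to OC, between lists of equal width, the Notch1 site changed by 1.0 (13 to 22, 95% interval -0.05 to 2.11) and the Rbpj site by -0.27 (20 to 14, -1.37 to 0.78).

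**Figure D5:**
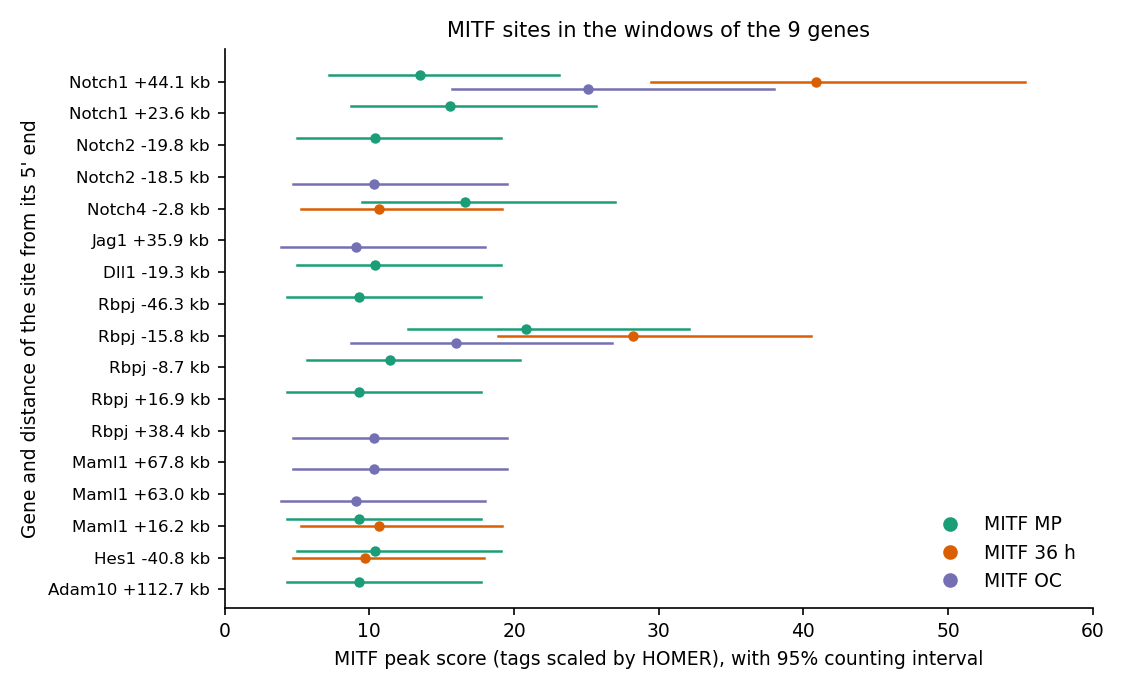
MITF scores of the 17 MITF sites are shown with 95% counting intervals by time, each site named by its gene and its distance from the 5′ end. The Notch1 intron (13.5, 40.9 and 25.1) and the site upstream of Rbpj (20.8, 28.2 and 16) are the only sites with a point for each time; most others have 1 point near the limit of their list.

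On either strand within 100 bp of the center, the ETS core GGAAGT was found at 66.4%, 68.3% and 63.4% of member PU.1 peaks, against 62.0%, 63.4% and 62.9% of all PU.1 peaks. The longer PU.1 core GAGGAAG was found at 40.9%, 40.5% and 40.7%, against 39.8%, 40.9% and 40.5%. The 2 patterns can overlap. The RBPJ core TGGGAA was found at 18.1%, 22.2% and 18.6% of member peaks, against 20.8%, 21.8% and 21.6%, and an E-box at 17.4%, 17.5% and 18.6%, against 17.4%, 17.3% and 17.2%. Of the member MITF peaks, 10 of 12, 5 of 5 and 7 of 7 held the ETS core, and 3, 1 and 1 held an E-box. The whole MITF lists had the ETS core at 74.2%, 73.8% and 71.9% of peaks and an E-box at 17%, 15.3% and 15.4%. The longer PU.1 core was at 33.3% of the 12 member MITF peaks in MPs, against 51.5% of that list. These are matches of letters and not measured binding sites.

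The other pathway genes were a list of 42 with the remaining receptors, ligands, gamma-secretase subunits, glycosyltransferases, coactivators, corepressors, targets and trafficking genes. PU.1 was in their windows in all 3 lists in 42 of 42 cases, and MITF in any list in 32. Of all protein-coding genes, 83.8%, 83.3% and 83.8% had a PU.1 peak in the window in MPs, at 36 h and in OCs. By list, MITF was in 59.5%, 45.2% and 54.8% of the windows of the 42, against 32.1%, 24.0% and 28.9% of all genes, again without matching of windows. The median density of the 42 was 6.86, 6.85 and 7.78 PU.1 peaks per 100 kb, between that of the members and that of all genes. Among the ligands, Jag2 had 13, 10 and 15 PU.1 peaks and Dll4 had 14, 18 and 16, whereas Dll3 had 7, 5 and 5. The receptor Notch3 had 10, 8 and 12 peaks and no score above 32.4. The low counts at Jag1 and Dll1 were thus not shared by every ligand. The highest PU.1 scores among the 42 were 349.7 at Psen2, a gamma-secretase subunit, 317.3 in the window of Hes5, a target gene, and 272.9 in that of Spen, a corepressor that binds RBPJ. The genes with MITF within 3 kb of a TSS included Psen2, Itch (a ubiquitin ligase) and Pofut1 (an O-fucosyltransferase of the receptors). Of the PU.1 pairs of the 42 genes, 2 of 390 were called higher and 2 lower at 36 h than in MPs. Further, 1 of 435 was higher in OCs than in MPs, and 0 of 411 were called between 36 h and OC. These shares were 1.03%, 0.230% and 0%, against 1.05%, 0.156% and 0.0707% of all pairs. Of their 18, 22 and 16 MITF pairs, 2 were called higher and 1 lower from MP to 36 h and 0 from MP to OC. From 36 h to OC, 1 was called higher and 2 lower. The MITF shares were 16.7%, 0% and 18.8%, of few pairs, against 15.2%, 0% and 9.66% of all pairs.

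Of the members, Notch1, Rbpj and Maml1 had peaks in all 6 lists. By the Euclidean distance of the log2 highest scores over the 6 libraries, the genes closest to Rbpj were Lrrfip1 (distance 0.29), Plekha5 (0.31) and Gm11078 (0.32). Closest to Notch1 were Cacna2d2, Cyb561d2 and Nprl2, all at 0.32 because their windows share the same highest peaks, and closest to Maml1 were Eno2, Lrrc23 and Spsb2, all at 0.19 for the same reason.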

How the data were processed

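PU.1 and MITF ChIP-Seq was performed in MPs, after 36 h of RANKL and in OCs, with IgG in MPs, 1 library each. Per the labels, reads were processed with CASAVA 1.8, mapped with Bowtie2 to mm9 and called with HOMER, and the authors deposited 1 list per library whose score is a scaled tag number. Call settings and other versions are not given in the sources used here. The nearest-transcript columns of the lists were not used. Scores were divided by the value of 1 tag. Genes came from GENCODE on the same build, in which a gene symbol's longest protein-coding model was used. An overlap needed 1 bp, and stitching used 12500 bp. Pairs were tested with an exact binomial test and Benjamini-Hochberg adjustment, checked on simulated tags. That check used counting noise alone and changes above 2-fold at pairs of many tags, so it does not cover the lower member pairs. Python 3.11.15, numpy 2.4.6, scipy 1.17.1 and pysam were used. Members, gene lists and tests were chosen with earlier results of these data known. Named sites were each window's highest PU.1 site, every MITF site, called pairs, the 3 largest changes each way per comparison, sites within 3 kb of a TSS, and sites at ChIP-qPCR primers. Further sites given by their tags were chosen after their values were seen. Primers came from the study's supplement and were matched to mm9. Tag tests compare libraries and not conditions. Alternatives were stricter scores, other windows, ratios, matching, stitching, motif distances and removal of peaks at IgG peaks. Joining of sites within 500 bp and reading the OC interval in each list were added after seeing the data. A gene that the naming rule covers is not reported here.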

Additional observations from a re-analysis of the deposited data

How the results depend on the processing

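No replicates exist, so no library could be left out. No paired analysis was possible because each condition has 1 library. Requiring scores of at least 2 times the lowest of the list gave 95, 82 and 94 PU.1 and 1, 2 and 1 MITF peaks in the windows, and windows of 10 kb gave 82, 75 and 77 and 6, 3 and 3. The share of PU.1 sites in all 3 lists was 61.95% with strict scores (58.45% genome-wide) and 60% with sites within 500 bp joined, and the share of MITF sites on PU.1 was 100.0% with strict scores (2 of 2 sites) and with 10 kb windows (8 of 8). The 5 other pair tests and all other alternatives gave 0 called member pairs, while the MITF test from MP to 36 h gave 1 with the ratio of implied library sizes, where 843 of 2509 pairs of the genome were called. The MITF test from MP to OC had no member pair under strict scores. Score per kb was ranked among regions of at least 3 peaks. By it, Notch2 ranked 4368 of 8966, 3940 of 8507 and 3968 of 9057 in MPs, at 36 h and in OCs. With stitching at 5000 bp, Notch2 ranked 1409 of 49116 in MPs, 1502 of 48450 at 36 h and 610 of 49524 in OCs. Over all members, score per kb moved 20 cluster ranks by over 1.5 times and left 3 within it, and stitching at 5000 bp moved 17 and left 7. Over the OC interval, added after seeing the data, the summed score at Notch2 was 1746.7 in MPs and 1472.0 at 36 h. Within 50 bp of the center, the E-box share of member PU.1 peaks was 7.38%, 10.3% and 8.97%, against 8.88%, 8.69% and 8.63% of all PU.1 peaks. The RBPJ core share was 10.1%, 10.3% and 9.66%, against 11.6%, 12.2% and 12.2%. At MITF peaks at 36 h the RBPJ core share was 0% for the members (0 of 5), against 12.6% of that list. Removing peaks at IgG peaks moved none of the 8 counts and shares it was applied to, but the IgG list held no score under 22.4 and could not test lower peaks. The lists' limits of 6 to 10 tags bound what can be seen.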
